A study of Mus musculus with 4 samples.

Results

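The respiratory chain genes of mouse lung cells were described across cell types and ages. The set held all 101 genes of 27998 in the gene tables whose symbols begin with mt-, Nduf, Uqcr, Atp5, or Cox4 to Cox8. Of these, 13 are encoded by the mitochondrial genome and 88 by nuclear chromosomes. The nuclear genes comprised 36 subunits of complex I (NADH dehydrogenase), 7 complex I assembly factors, 8 subunits of complex III (the cytochrome bc1 complex), 20 genes of complex IV (cytochrome c oxidase) and 17 genes named for complex V (ATP synthase). Lungs of wild-type C57BL/6 mice, labelled male, were digested with collagenase D and DNase1, dead cells were removed with a kit, and single cells were profiled by 10x 3′-end RNA sequencing. There was 1 library per age: NB (10 days), 2 M (2 months), 10 M (10 months) and 18 M (18 months). No treatment or engineered allele was used, and how many animals went into a library is not given in the sources used here. No group was replicated, so the intervals given for differences between ages cover counting error only. No p-value was computed for these differences. Where 4 values are given in a row, they run in order of age.

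The respiratory chain sits in the inner mitochondrial membrane. Complexes I, III and IV pass electrons from NADH to oxygen and pump protons, and complex V uses the proton gradient to make ATP. Complexes I, III, IV and V are assembled from subunits of both genomes, and several complex IV subunits exist as a common form and as a form known from heart, skeletal muscle, testis or oxygen-sensing cells. Alveolar type II cells, which make surfactant, and alveolar macrophages, which clear it, are both known to be rich in mitochondria, whereas mature neutrophils hold few.

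Sequence upstream of 3 members is shown because they carry the contrasts described later. Cox6a1 and Cox6b2 are the common and the restricted form of different complex IV subunits, and Uqcr11 is a small subunit of complex III. The windows lie within 250 bases upstream of the gene start, without bases that GENCODE vM21 places in a transcript, and come from RefSeq on GRCm38.p6. Capitals mark GCATGCG or its reverse complement CGCATGC (a core of the NRF1 site), CCGGAAG or CTTCCGG (a core of ETS sites such as that of GABP), and ACGTG or CACGT (the core of the HIF site). In Cox6a1 the NRF1 core was matched on both strands by overlapping letters, in Uqcr11 a HIF core and an ETS core were matched, and in Cox6b2 none of these letters was found. The Cox6a1 window is chr5:115348982-115349208 (minus strand), the Cox6b2 window chr7:4753095-4753344 (minus) and the Uqcr11 window chr10:80406831-80407071 (minus).
Cox6a1: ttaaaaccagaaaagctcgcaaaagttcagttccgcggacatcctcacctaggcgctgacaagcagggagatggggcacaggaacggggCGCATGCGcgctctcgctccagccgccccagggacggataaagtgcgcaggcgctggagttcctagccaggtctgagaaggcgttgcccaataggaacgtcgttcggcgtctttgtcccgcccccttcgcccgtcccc
Cox6b2: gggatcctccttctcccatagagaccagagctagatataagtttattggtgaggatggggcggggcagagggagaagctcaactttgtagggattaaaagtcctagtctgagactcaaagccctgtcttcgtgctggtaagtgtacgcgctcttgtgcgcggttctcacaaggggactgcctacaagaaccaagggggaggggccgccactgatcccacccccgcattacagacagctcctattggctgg
Uqcr11: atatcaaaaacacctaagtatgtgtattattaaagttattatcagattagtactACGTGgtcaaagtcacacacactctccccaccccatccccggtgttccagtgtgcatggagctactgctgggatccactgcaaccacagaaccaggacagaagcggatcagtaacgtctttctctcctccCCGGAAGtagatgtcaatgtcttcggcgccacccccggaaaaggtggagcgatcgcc

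Windows were found for 70 of the 88 nuclear members, 75 windows in all. Shares were counted over the whole 250 bases before the start, for members and for all genes alike, so transcribed bases left out of the printed sequences were searched too. At least 1 match of the NRF1 core, on either strand, stood in 9 of the 75 (12%), against 3.02% of 32851 windows of all genes. The ETS core stood in 12 (16%), against 6.91% of all windows, and the HIF core in 14 (18.7%), against 16.6%. A match is a description of letters and not of binding. Cox6a2, Cox4i2 and Ndufa4l2 had no entry.

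The libraries held 33087004 to 64863474 UMIs (unique molecules counted) in 6283 to 11297 barcodes, of which 5732 to 8947 per library had more than 200 and fewer than 5000 genes and at most 25000 UMIs. From 17 to 28 barcodes were shared between any 2 libraries. A cell was given a type when it had UMIs for at least 3 markers of that type and led every other list by at least 2 markers, which placed 72.6% to 75.5% of cells. Doublets were not removed. In all 8 types with at least 20 cells in every library, each own marker found in the gene tables had UMIs in each library. For T cells these were 5 markers, since not every marker of their list was found there. The 18 M library held Xist, the transcript of the inactive X chromosome, at 497 CPM (UMIs per 1000000 UMIs), against at most 0.463 CPM in the other 3, although all mice were labelled male. There, 3484 cells had Y-linked and no Xist UMIs, 2872 had Xist and no Y-linked UMIs, and 380 had both. For several results on 18 M the value in its cells with Y-linked and no Xist UMIs (called Y-linked cells) is given as well.

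Nuclear and mitochondrial members were both lowest in neutrophils in every library. Summed nuclear members reached 6210, 7829, 6932 and 6975 CPM in neutrophils, and between 9569 and 17691 CPM in the 7 other types. Summed mitochondrial members were 6689, 8081, 7665 and 8263 CPM in neutrophils, and at least 23356 CPM elsewhere. Neutrophils thus overlapped with no other type on either sum. Their own 6 markers took 121325 to 186904 CPM, and the part of that in these low shares was not tested. Among the 8 types, alveolar type II cells had the highest mitochondrial sum in the 3 younger libraries, at 63669, 48387 and 53287 CPM. The 18 M sum was 39669 CPM, below T cells (42978), B cells (53912) and alveolar macrophages (47502).

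**Figure D1:**
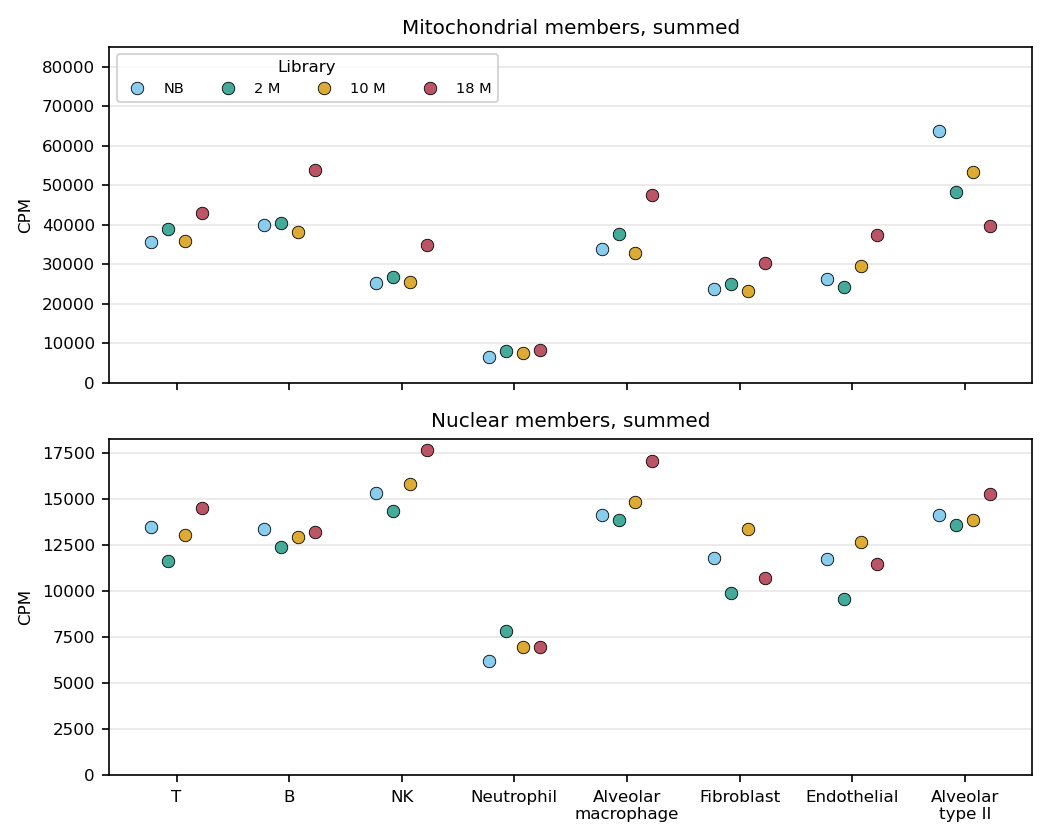
Summed CPM of the 13 mitochondrial members (top) and the 88 nuclear members (bottom) in 8 cell types, 1 point per library. Neutrophils lie at 6689 to 8263 CPM (mitochondrial) and 6210 to 7829 CPM (nuclear), below all other points, and alveolar type II cells have the highest mitochondrial sums of the 8 types in the 3 younger libraries and 39669 CPM in 18 M.

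To ask which types carried more or less of each member, UMIs summed by type and library were compared with edgeR's quasi-likelihood test, each type against the mean of the 7 others, with the library as a block and Benjamini-Hochberg adjustment over 12956 genes. The 4 libraries served as the samples, so the spread between them includes age. All 13 mitochondrial and 84 nuclear members passed the filter on low counts (at least 10 UMIs in at least 4 sums), and Cox4i2, Cox7b2, Cox8b and Cox8c did not.

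Alveolar macrophages and alveolar type II cells carried more of the nuclear chain. In alveolar macrophages 59 of 84 nuclear members were higher (32.7% of all genes tested) and 7 were lower (27.2% of all genes). Alveolar type II cells had 60 higher (34.2% of all genes) and 1 lower (23% of all genes). The median log2 difference of the nuclear members lay 0.59 above that of all genes in alveolar macrophages and 0.39 above it in alveolar type II cells. Of the members higher in one of these types, 44 were higher in both. With 59 and 60 of 84 called, unrelated calls would share about as many. The overlap is therefore no sign of a shared set, and that of all genes was not counted. Both contrasts hold the other type in the comparison group.

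Endothelial cells carried less. There, 48 nuclear members were lower (17.3% of all genes) and 1 was higher (20.6% of all genes), and their median lay 0.41 below that of all genes. With no normalization beyond CPM the endothelial counts became 12 higher and 10 lower, since all genes then shifted from a median of -0.09 to 0.37, but the median of the members still lay 0.40 below that of all genes. Leaving out the 2 M library, which had 34 endothelial cells, left 31 members lower.

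In neutrophils 45 nuclear members were lower (32.4% of all genes) and 20 were higher (25.8% of all genes). Their median log2 difference of -0.51 lay 0.11 below that of all genes. The 20 higher calls depended on the scaling. With no normalization beyond CPM, which puts the median of all genes at -1.44, only Ndufa3, Atp5l, Ndufb9, Ndufa7 and Ndufaf7 were higher, and 72 were lower.

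The lymphocytes and fibroblasts stood near the middle. In T cells 30 nuclear members were higher (36.6% of all genes) and 16 lower (21.3%), and in B cells 18 were higher (39.1%) and 16 lower (21.6%). With DESeq2's size factors in place of TMM the same fit gave 15 higher and 33 lower in T cells and 6 higher and 39 lower in B cells, so neither type had a direction as a set. In NK cells 16 were higher (19.6%) and 21 lower (21.6%), which became 49 and 5 with no normalization beyond CPM. In fibroblasts 13 were higher (32.5%) and 24 lower (23.4%). Against the median of all genes the nuclear members lay 0.11 lower in T cells, 0.18 lower in B cells, 0.10 higher in NK cells and 0.13 lower in fibroblasts.

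**Figure D2:**
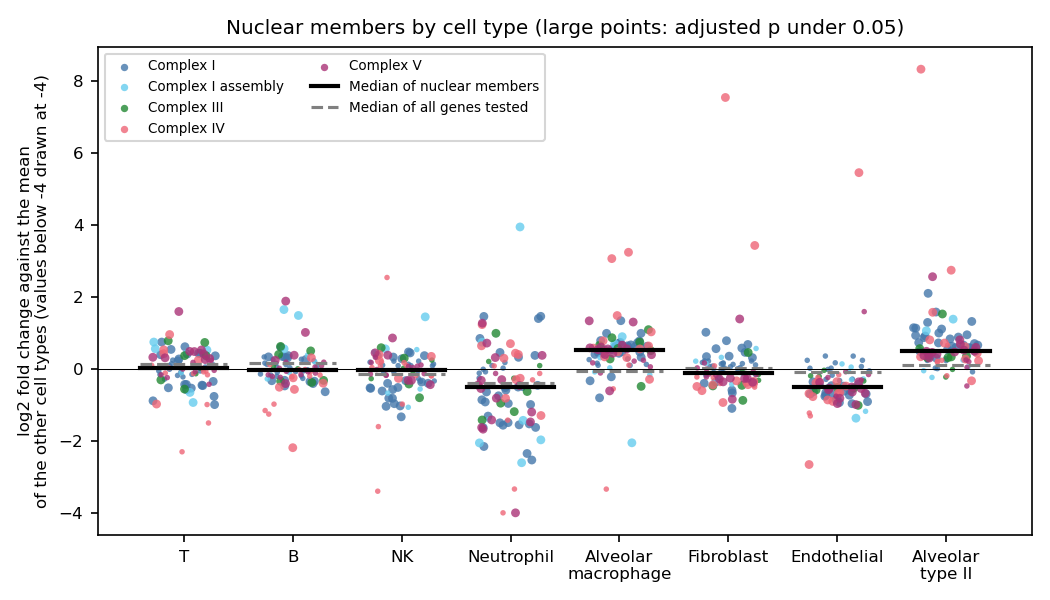
Log2 difference of 84 nuclear members in each cell type from the mean of the 7 other types (edgeR), coloured by complex, large points with an adjusted p under 0.05. The median of the members (black bar) lies 0.59 above that of all genes (dashed grey bar) in alveolar macrophages, 0.39 above it in alveolar type II cells and 0.41 below it in endothelial cells, whereas in T cells, B cells and NK cells the split into higher and lower calls changes with the scaling.

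The complex I subunits, which form the entry point for electrons from NADH, followed this pattern. Of the 36, 29 were higher in alveolar type II cells and none was lower, with a median log2 difference of 0.66 (0.10 over all genes). In alveolar macrophages 27 were higher and 3 lower, in endothelial cells 21 were lower and none was higher, and in neutrophils 21 were lower and 7 higher. Beside these and the later counts by complex, the shares of all genes called higher and lower were 34.2% and 23% in alveolar type II cells, 32.7% and 27.2% in alveolar macrophages, 20.6% and 17.3% in endothelial cells and 25.8% and 32.4% in neutrophils. Ndufc2, a small membrane-arm subunit, had the widest range of log2 differences over the 8 types of these 36 genes. It reached 223, 238, 280 and 274 CPM in alveolar type II cells, against 6.11, 11.3, 5.18 and 19.6 CPM in neutrophils. The ranges of these types did not overlap, and alveolar type II cells lay above every other type in every library (log2 difference 2.10 ± 0.11 SE, adjusted p = 6.54e-17, edgeR).

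Within complex I, subunits of one cell type did not move together. Neutrophils had 182, 239, 217 and 191 CPM of Ndufa7, an accessory subunit. T cells had 95.8, 74.2, 83.0 and 104 CPM. The neutrophil values were higher in all 4 libraries (log2 difference from the mean of the other types 1.45 ± 0.11 SE, adjusted p = 5.23e-13, edgeR), and the same gene was lower than the mean of other types in T cells (-0.99 ± 0.13) and NK cells (-1.03 ± 0.14). Ndufa3, another accessory subunit, was likewise higher in neutrophils (1.46 ± 0.12). With no normalization beyond CPM both differences were 0.43 and still called. Ndufa5, an accessory subunit of the matrix arm, went the other way there, with 5.17, 6.26, 7.40 and 5.61 CPM, from 5 to 11 UMIs per library (-2.53 ± 0.21). Ndufb11, encoded on the X chromosome, was among the few subunits lower in alveolar macrophages (-0.81 ± 0.10), at 90.6 to 100.2 CPM. In NK cells Ndufc1 (-1.33 ± 0.17) and Ndufa12 (-1.04 ± 0.20) were the nuclear members called lower with the largest differences, and in fibroblasts Ndufb7 was (-1.10 ± 0.16).

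The complex I assembly factors, which build the complex and are not part of it, were counted apart. Ndufaf7, a methyltransferase, had the largest excess of the nuclear members called higher in neutrophils. It stood at 59.25, 50.09, 63.6 and 71.5 CPM in neutrophils, and at 1.68, 3.83, 3.70 and 2.38 CPM in alveolar macrophages. Every neutrophil value lay above every value of the 7 other types, of which the next highest was 27.6 CPM in endothelial cells of 2 M, from 5 UMIs. Its log2 difference was 3.94 ± 0.19 SE in neutrophils (adjusted p = 1.94e-18, edgeR), 2.89 with no normalization beyond CPM, and -2.05 ± 0.30 in alveolar macrophages. The other factors were mostly lower in neutrophils, where 4 of 7 were lower and 2 higher. Ndufaf1 had 0, 0, 1 and 1 UMI there, against 66 to 125 UMIs in B cells, and was higher in B cells (1.48 ± 0.29) and, from 2 to 25 UMIs per library, in NK cells (1.44 ± 0.40). Ndufaf4 reached 61.6, 64.8, 65.0 and 63.0 CPM in B cells (1.65 ± 0.16, adjusted p = 3.57e-10). Ndufaf3 was lower in T cells (-0.94 ± 0.17).

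The complex III subunits, which pass electrons from ubiquinol to cytochrome c, were higher in alveolar macrophages in 7 of 8 cases. The exception there was Uqcrh, the hinge protein that binds cytochrome c1, which was lower (-0.49) and was instead highest in T cells, at 894, 835, 888 and 1141 CPM (0.78 ± 0.10, adjusted p = 6.64e-08, edgeR). Of the 8, 6 were higher in alveolar type II cells. Uqcr11, a small subunit, had 303, 310, 261 and 328 CPM in alveolar type II cells and 248, 224, 238 and 268 CPM in alveolar macrophages, against 39.5 to 57.6 CPM in neutrophils. Alveolar type II values lay above those of alveolar macrophages in each library. The Rieske iron-sulfur subunit Uqcrfs1 was higher in T cells, B cells, NK cells and alveolar macrophages and lower in fibroblasts (-0.88 ± 0.12) and endothelial cells (-1.01 ± 0.14). In neutrophils 4 of 8 were lower and 1 was higher, which was Uqcrq (0.99 ± 0.13) and was not called with no normalization beyond CPM.

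Among the common subunits of complex IV, which reduces oxygen to water, Cox5a separated the surfactant-handling cell types. It stood at 493.5, 430.8, 488.2 and 453.9 CPM in alveolar macrophages and at 140.9, 144.5, 143.5 and 156.3 CPM in alveolar type II cells. Alveolar macrophages lay above alveolar type II cells in every library. Cox5a was higher in alveolar macrophages (1.48 ± 0.08 SE, adjusted p = 3.63e-16, edgeR), and it was the only nuclear member called lower in alveolar type II cells (-0.33 ± 0.10, adjusted p = 0.00635), where 4 were called lower with no normalization beyond CPM. It was lower in fibroblasts as well (-0.94 ± 0.11). Over the 16 nuclear complex IV genes tested, 12 were higher and 1 lower in alveolar macrophages, 10 higher and 1 lower in alveolar type II cells, 1 higher and 11 lower in endothelial cells, and 6 higher and 4 lower in neutrophils. Cox7a2l was highest in T cells, at 448, 562, 501 and 435 CPM (0.95 ± 0.10, adjusted p = 3.16e-09, edgeR). In B cells Cox6c (-0.57 ± 0.10) and, in complex I, Ndufb9 (-0.64 ± 0.13) were among the 3 nuclear members called lower with the largest differences.

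The genes for the membrane ring of complex V, which turns as protons pass, were unequal between cell types. Atp5g1, Atp5g2 and Atp5g3 encode the same mature subunit c behind different import signals. Atp5g1 stood at 262, 279, 311 and 314 CPM in alveolar macrophages and at 19.7, 35.1, 24.4 and 30.1 CPM in neutrophils. Atp5g3 stood at 265, 312, 290 and 429 CPM in alveolar macrophages and at 24.9, 35.1, 22.2 and 63.1 CPM in neutrophils. Each alveolar macrophage value exceeded every neutrophil value of the same gene. Both were higher in alveolar macrophages (1.33 ± 0.11 and 1.30 ± 0.09, adjusted p = 1.34e-12 and 5.73e-14, edgeR). Of the UMIs of the 3 genes, which are counted at the 3′ end and so compare without a length term, Atp5g1 gave 29.1% to 36.3% in alveolar macrophages.

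Over the 17 genes named for complex V, 13 were higher in alveolar type II cells and none lower, 11 were higher and 1 lower in alveolar macrophages, 11 were lower in endothelial cells and none higher, and 12 were lower and 4 higher in neutrophils. Of these names, Atp5sl and Atp5s are not core subunits of the enzyme, and Atp5sl is also known as Dmac2, a factor of complex I assembly. Atp5sl was the nuclear member called higher with the largest difference in both B cells (29.5, 37.3, 38.9 and 40.9 CPM, log2 difference 1.88 ± 0.16) and T cells (25.2, 27.8, 28.7 and 26.0 CPM, 1.59 ± 0.16), and it was higher in NK cells too (0.86 ± 0.24). In alveolar macrophages it stood at 3.78 to 8.15 CPM (-0.61 ± 0.22). Atp5s had no UMI in neutrophils of any library. It had 5 to 32 UMIs per library in alveolar type II cells, 4.33 to 10.5 CPM (2.56 ± 0.45), and 4 to 12 UMIs in fibroblasts (1.38 ± 0.51).

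The mitochondrial transcripts were measured apart, because their share of UMIs is also used as a sign of damaged cells. They encode 7 subunits of complex I (mt-Nd1 to mt-Nd6 with mt-Nd4l), cytochrome b of complex III (mt-Cytb), the 3 catalytic subunits of complex IV (mt-Co1 to mt-Co3) and 2 subunits of complex V (mt-Atp6 and mt-Atp8). All 13 were higher in alveolar type II cells and all 13 lower in neutrophils, under each scaling and without each library in turn (34.2% of all genes were higher in alveolar type II cells and 32.4% lower in neutrophils). Their median log2 difference lay 0.89 below that of all genes in neutrophils and 1.17 above it in alveolar type II cells. There, the complex I transcripts mt-Nd4l (2.00 ± 0.12), mt-Nd5 (1.91 ± 0.13) and mt-Nd2 (1.70 ± 0.13) had the largest differences (adjusted p = 1.78e-15, 5.63e-14 and 3.52e-13, edgeR), and mt-Co2 (0.64) had the smallest. The share of cells with at least 8% mitochondrial UMIs was 28.0%, 14.3%, 13.3% and 6.06% in alveolar type II cells, and all 13 remained higher when those cells were left out of every type.

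In alveolar macrophages 11 of 13 were higher (32.7% of all genes) and none lower, the exceptions being mt-Nd5 and mt-Nd6. T cells had 8 higher (36.6% of all genes) and B cells 7 (39.1%), with none lower in either. In NK cells 10 were lower (21.6% of all genes), in endothelial cells 6 (17.3%), and in fibroblasts 5 were lower (23.4%) and 1 (mt-Nd4l) was higher (32.5%). The counts for lymphocytes, endothelial cells and fibroblasts depended on the processing: with no normalization beyond CPM 3 were lower in NK cells and none in endothelial cells, against 3 higher in endothelial cells, 10 in T cells and 12 in B cells, and with DESeq2's size factors 4 were higher in T cells and 1 in B cells. The count of 5 lower in fibroblasts was 1 to 5 without single libraries. Transcripts mt-Atp8 and mt-Atp6, mt-Atp6 and mt-Co3, and mt-Nd4l and mt-Nd4 overlap on the same strand (mt-Atp8 spans chrM:7766-7969 and mt-Atp6 chrM:7927-8607 in GRCm38), so that the split of UMIs within each pair is uncertain, and mt-Nd1 and mt-Nd2 each overlap a tRNA gene. The counts are uncertain in the same way for the nuclear members Atp5g2, Atp5o, Ndufb2, Ndufb8 and Ndufb9, whose exons overlap those of another annotated gene on their strand.

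**Figure D3:**
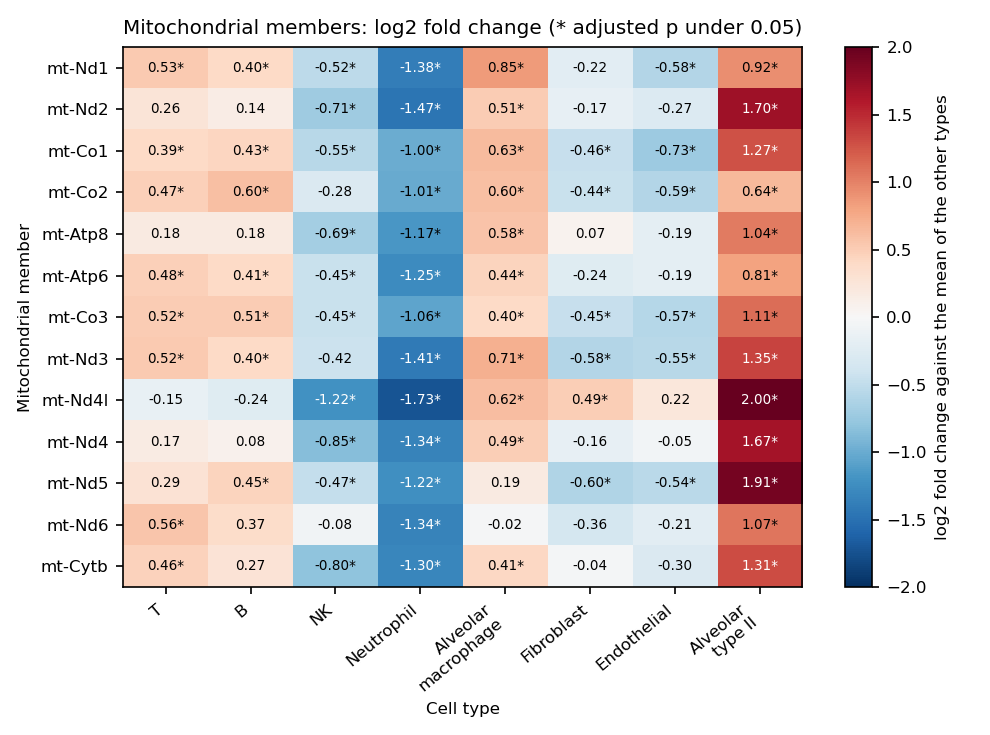
Log2 difference of each mitochondrial member in each cell type from the mean of the 7 other types, as colour and number, with an asterisk at an adjusted p under 0.05 (edgeR). All 13 rows are positive in alveolar type II cells and negative in neutrophils, and the complex I transcripts mt-Nd4l (2.00) and mt-Nd5 (1.91) are the largest.

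The sharpest restriction was found for the alternative forms of complex IV subunits. Cox6a2, the form of subunit 6A known from heart and skeletal muscle, lies at chr7:128205435-128206387 (minus strand) in GRCm38. Alveolar type II cells had 202, 252, 228 and 36.4 CPM, from 135, 157, 369 and 233 UMIs. It was high in 3 libraries and low in 18 M, but each value exceeded all values of the 7 other tested types, of which the next highest was 33.6 CPM in NK cells of 18 M. Its log2 difference was 8.32 ± 0.50 SE (adjusted p = 1.23e-14, edgeR). At least 1 UMI was found in 31 of 50, 35 of 49, 84 of 120 and 130 of 660 alveolar type II cells. In B cells, which serve as the background, the numbers were 0 of 1964 (which allows a share of cells with a UMI of up to 0.153%), 1 of 2332, 4 of 3142 and 23 of 2603. Median depth was 10582 to 14031 UMIs per cell in alveolar type II cells and 3110 to 3768.5 UMIs in B cells.

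Counted against its common partner Cox6a1, Cox6a2 supplied 45.9% (exact 95% interval 40.1% to 51.8%), 47.6% (42.1% to 53.1%) and 50.3% (46.7% to 54.0%) of the UMIs of the pair in alveolar type II cells of the 3 younger libraries. The 18 M share was 11.3% (9.95% to 12.7%). Both genes are counted at the 3′ end. Intervals cover counting error only. Cox6a1 itself stood at 238, 278, 225 and 286 CPM and was highest in 18 M. Markers of cardiac muscle, a known site of Cox6a2, summed to 13.5, 6.42, 8.04 and 15.8 CPM in these cells, with Myl7, Myh6, Nppa, Pln and Sln at 0 UMIs in all 4 libraries. The 1 NB cell that carried the cardiac marker list had 52 UMIs of Cox6a2 and none of Cox6a1.

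Cox6b2, the form of subunit 6B known from testis, was found in fibroblasts and alveolar macrophages. Fibroblasts had 122, 54.8, 83.5 and 26.2 CPM, and alveolar macrophages 45.4, 49.8, 57.8 and 81.7 CPM. The types overlapped across libraries, and their order was reversed between NB and 18 M. Both were higher than the mean of the other types (3.43 ± 0.28 and 3.24 ± 0.27, adjusted p = 3.86e-12 and 3.39e-12, edgeR), as were alveolar type II cells (1.57 ± 0.38), at 19.7 to 25.7 CPM. It was lower in B cells (-2.19 ± 0.50), T cells (-0.98 ± 0.40) and endothelial cells (-2.66 ± 0.98, from 3 UMIs in all). The call in T cells was lost with no normalization beyond CPM (adjusted p = 0.0519, edgeR), and that in endothelial cells with either other scaling. Of the UMIs of the pair Cox6b1 and Cox6b2, the latter gave 36.6%, 23.6%, 25.1% and 11.6% in fibroblasts and 8.93%, 9.26%, 10.5% and 13.1% in alveolar macrophages. In the 32 ciliated cells of 18 M it gave 35 of 107 UMIs (32.7%, 24.0% to 42.5%), against 0, 0 and 3 UMIs in the 16, 3 and 8 ciliated cells of the younger libraries.

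Ndufa4l2, a relative of the complex IV subunit Ndufa4 that is induced by low oxygen in other settings, lies at chr10:127514967-127517154 (plus strand) in GRCm38. Fibroblasts had 13.4, 40.8, 24.1 and 29.0 CPM, from 16, 38, 85 and 51 UMIs, and T cells, B cells, NK cells, neutrophils and alveolar macrophages lay at or near 0. The gene passed the filter on low counts only through the fibroblasts, so their values stand as a description and no test is given. Endothelial cells had 7, 0, 4 and 1 UMI (log2 difference from the mean of the other types 5.45 ± 0.85). Markers of pericytes and smooth muscle cells, which carry the gene too, summed to 84.7, 103, 91.4 and 202 CPM in the fibroblasts, with 7 of 8 detected and Trpc6 at 0, and to 127, 149, 103 and 49.9 CPM in the endothelial cells. Their part in these values was not tested. Ndufa4l2 gave 6.06%, 21.6%, 8.06% and 12.5% of the UMIs of the pair with Ndufa4 in fibroblasts, and the interval of 2 M (15.8% to 28.4%) lay above those of NB and 10 M.

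Cox7a1, the heart and muscle form of subunit 7A, was low in all 8 tested types. Alveolar macrophages had 8.40, 7.19, 7.68 and 7.72 CPM and alveolar type II cells 7.50, 11.2, 4.95 and 4.53 CPM, and the types overlapped. It passed the filter on low counts only through alveolar macrophages, for which no test is therefore given, and it was higher in alveolar type II cells than the mean of the other types (2.74 ± 0.46, adjusted p = 5.57e-06, edgeR). Outside these types, 10 and 3 UMIs in the few cardiac muscle cells of NB and 10 M came to 2065 and 4380 CPM. It supplied 1.97% to 2.86% of the UMIs of its pair with Cox7a2 in alveolar macrophages.

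Cox4i2, the form of subunit 4 known from the lung and the carotid body, was found in pericytes and smooth muscle cells, which had 10 to 31 cells per library. There, it had 8, 12, 17 and 6 UMIs, or 30.5, 119, 58.7 and 23.4 CPM, and gave 3.03%, 12.4%, 5.61% and 1.89% of the UMIs of the pair with Cox4i1. A fit over 10 cell types was added after the data had been seen. In it, Cox4i2 passed the filter on low counts only with the sums of that type and of alveolar type II cells. No test is therefore given for either. It was higher than the mean of the other types in endothelial cells (3.37 ± 0.74) and fibroblasts (1.81 ± 0.54). Ndufa4l2 was higher in pericytes and smooth muscle cells (6.23 ± 0.69), from 3 to 6 UMIs per library. Alveolar type II cells held 1, 11, 10 and 36 UMIs of Cox4i2. Cox8b, the muscle form of subunit 8, had 14, 5, 24 and 0 UMIs in fibroblasts, and no other tested type had more than 1 UMI in a library. Cardiac markers summed to 15.1, 14.0, 17.9 and 118 CPM in the fibroblasts, highest in 18 M, where Cox8b had no UMI. Cox7b2 had 1 UMI in all, in fibroblasts of 10 M, and Cox8c had 2, in alveolar type II cells of 18 M.

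**Figure D4:**
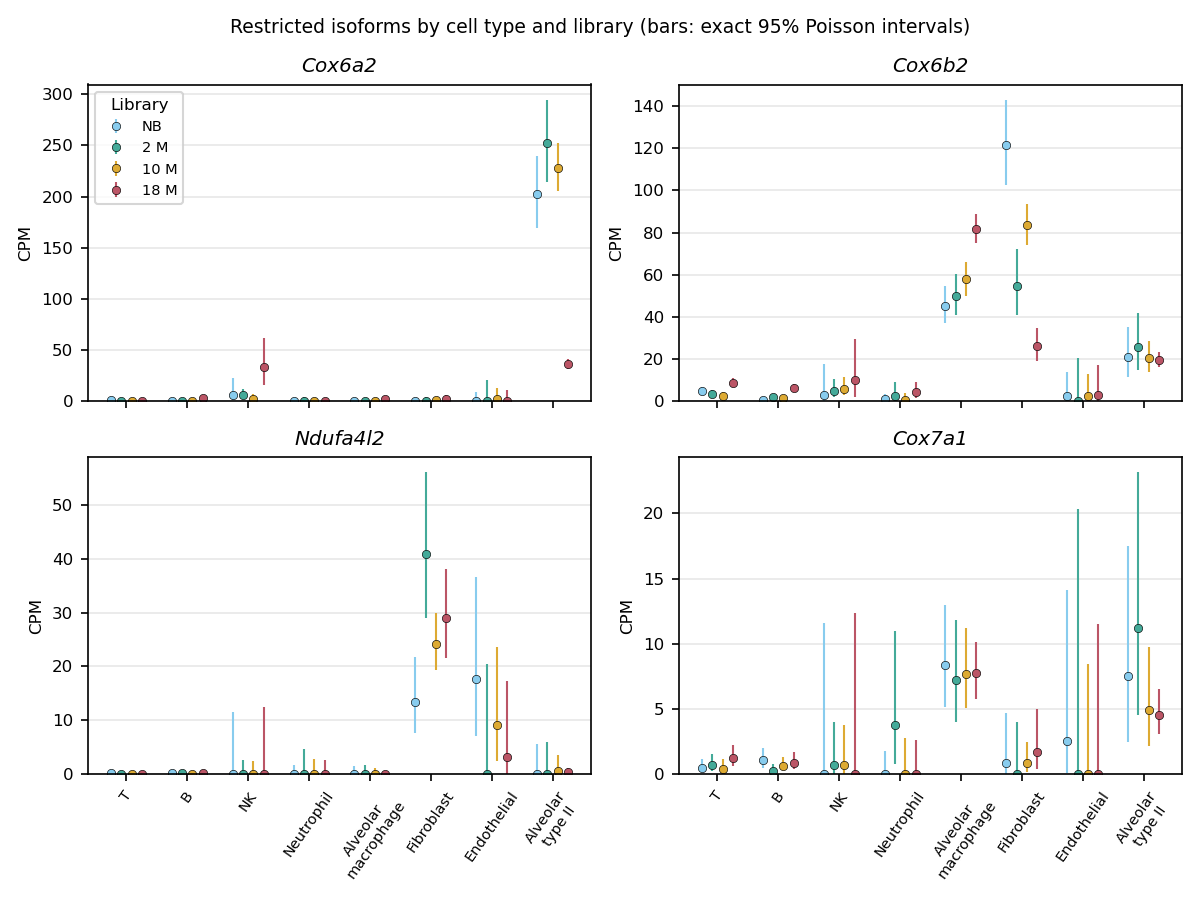
CPM of 4 restricted complex IV forms in 8 cell types, 1 point per library with its exact 95% Poisson interval, which covers counting error only. Cox6a2 stands in alveolar type II cells (202 to 252 CPM in NB, 2 M and 10 M, 36.4 CPM in 18 M), Cox6b2 in alveolar macrophages and fibroblasts with opposite order of NB and 18 M, Ndufa4l2 in fibroblasts and endothelial cells, and Cox7a1 in alveolar macrophages and alveolar type II cells.

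Ages were compared as ratios of CPM to the 2 M library, among members with at least 30 UMIs over both libraries, with exact conditional 95% intervals. All these ratios share the 2 M library. The share of nuclear members past 1.5-fold was below that of all genes in most of these contrasts. Exceptions, all among those higher, were NK cells of 18 M, fibroblasts of 10 M and endothelial cells of NB, 10 M and 18 M. In endothelial cells 16 of 63 were higher in NB (457 of 3275 of all genes). There were 22 of 64 in 10 M (584 of 3556) and 15 of 57 in 18 M (647 of 3163). For 18 M, 3 of 81 nuclear members of alveolar type II cells were at least 1.5-fold higher (25.2% of all genes) and 4 at least 1.5-fold lower (10.2% of all genes), and their sum was 1.12 times that of 2 M. The 4 became 2 in the Y-linked cells and 1 with a minimum of 100 UMIs. In alveolar macrophages 6 of 80 were higher (11.9%) and 1 lower (10.1%), with a sum ratio of 1.23, and the 6 became 1 in the Y-linked cells and 12 with totals that leave out mitochondrial, haemoglobin and ribosomal protein genes. In B cells 3 of 82 were higher (20.4%) and 2 lower (10.3%), and in T cells 9 of 80 were higher (22.6%) and 2 lower (5.66%). The 3 in B cells became 1 with a minimum of 100 UMIs or with cells under 8% mitochondrial UMIs, and the 9 in T cells became 4 with the same reduced totals and 5 as means over cells. In NK cells, of which 18 M had 48, 14 of 74 were higher (13%) and 3 lower (21%). The 14 became 24 in the Y-linked cells, 23 with 1 more marker required, and 9 as means over cells or with a minimum of 100 UMIs. In fibroblasts 2 of 75 were higher (15.9%) and 4 lower (14.2%), and the 4 became 10 in the Y-linked cells, 8 as means over cells and 2 with a minimum of 100 UMIs.

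In fibroblasts the nuclear members as a set stood higher in 10 M than in 2 M. There, 17 of 78 nuclear members were at least 1.5-fold higher (12.6% of all genes) and 1 at least 1.5-fold lower (8.11% of all genes). The median log2 ratio was 0.45, against -0.01 for all genes, and the sum was 1.35 times (1.32 to 1.38) that of 2 M, while the summed mitochondrial members were 0.93 times (0.92 to 0.95). Uqcrc1, a core subunit of complex III, went from 27.9 to 57.6 CPM (2.06-fold, 1.37 to 3.23), Ndufb8 from 61.3 to 117 CPM (1.90-fold, 1.44 to 2.56) and Atp5g1 from 139 to 259 CPM (1.87-fold, 1.55 to 2.27). The member that was lower was Ndufa4l2 (0.59-fold, 0.40 to 0.89). The summed nuclear members of fibroblasts were 11809, 9881, 13365 and 10705 CPM, lowest in 2 M. The shift was not particular to fibroblasts. Endothelial cells of 10 M had a median log2 ratio of 0.40 (-0.02 for all genes) and a sum 1.32 times (1.25 to 1.40) that of 2 M. In pericytes and smooth muscle cells the sum was 1.53 times (1.45 to 1.62). In the other tested types it ran from 0.89 times in neutrophils to 1.12 times in T cells.

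Cox6a2 in alveolar type II cells had the lowest ratio of any member in that type, and 18 M stood at 0.14 times 2 M (0.12 to 0.18). The Y-linked and Xist cells of 18 M had 34.4 and 40.2 CPM, both below the 202 to 252 CPM of the other libraries. In B cells Cox6a2 went from 2 to 28 UMIs (12.9-fold, 3.24 to 111) at levels of 0.213 and 2.74 CPM. In NK cells of 18 M its 10 UMIs lay in 4 of 48 cells. Cox6b2 was lower in fibroblasts of 18 M (0.48 times 2 M, 0.31 to 0.72, and 0.36 in the Y-linked cells) and 2.22-fold higher (1.60 to 3.12) in those of NB. The 9 fibroblast markers summed to 9520.9, 18468.3, 11423.6 and 50093.5 CPM in these cells. One of them, Tcf21, stood at 203, 173, 168 and 78.5 CPM. The part of these shifts in the Cox6b2 ratios was not tested. Cox6b2 was higher in 18 M in alveolar macrophages (1.64-fold, 1.33 to 2.04, and 1.48-fold in the Y-linked cells), T cells (2.51-fold, 1.59 to 4.09) and B cells (2.89-fold, 1.74 to 4.97).

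The mitochondrial members of alveolar type II cells were lower in 18 M than in 2 M in 13 of 13 cases. Of all genes, 5925 of 10060 were higher in 18 M. At least 1.5-fold lower were 5 of the 13 (11 as means over cells), against 10.2% of all genes. mt-Nd5 stood at 1231, 1203, 1342 and 488 CPM, and mt-Nd6 at 49.5, 56.2, 60.0 and 19.2 CPM. The 18 M value was the lowest for both, and the other 3 lay close together. The ratio for mt-Nd5 was 0.41, and the sum of the 13 was 0.82 times (0.81 to 0.83) that of 2 M, as it was in the Y-linked cells of 18 M (0.82). In the 7 other tested types of 18 M the sum ran from 1.02 times that of 2 M in neutrophils, with an interval of 0.99 to 1.05 that includes 1 (1.35 in their Y-linked cells, 1.30 to 1.40), to 1.54 times in endothelial cells. In pericytes and smooth muscle cells, which had 10 cells in 2 M and 31 in 18 M and were not among these types, it was 0.61 times (0.59 to 0.63). Haemoglobin in alveolar type II cells of 18 M took 118974 of 6399295 UMIs, against 247 of 622837 in 2 M. Median depth in alveolar type II cells was 10582 against 13835 UMIs per cell. The part of these differences in the ratios was not tested beyond totals that leave out haemoglobin, mitochondrial and ribosomal protein genes.

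Few members had the same order of libraries in every type. Atp5g3, Uqcrh and Atp5a1, the catalytic-head alpha subunit of complex V, were highest in 18 M in all 8 types, which is 3 of 84 nuclear members against 0.942% of all genes. Atp5g3 stood at 275 CPM in T cells of 18 M, with 173, 185 and 180 CPM in the younger libraries. Uqcrh stood at 687 CPM in alveolar type II cells of 18 M, against 463, 440 and 459 CPM, a ratio to 2 M of 1.56 (1.38 to 1.77). The mitochondrial members mt-Co1, mt-Co3 and mt-Nd4 were highest in 18 M in 7 types, and in alveolar type II cells they were highest in NB. That is 3 of 13, against 537 of 12949 of all genes highest in 18 M in 7 or 8 types. For the younger libraries the numbers of all genes were 24 (NB), 38 (2 M) and 23 (10 M). Each age was 1 library, so age and library cannot be told apart.

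**Figure D5:**
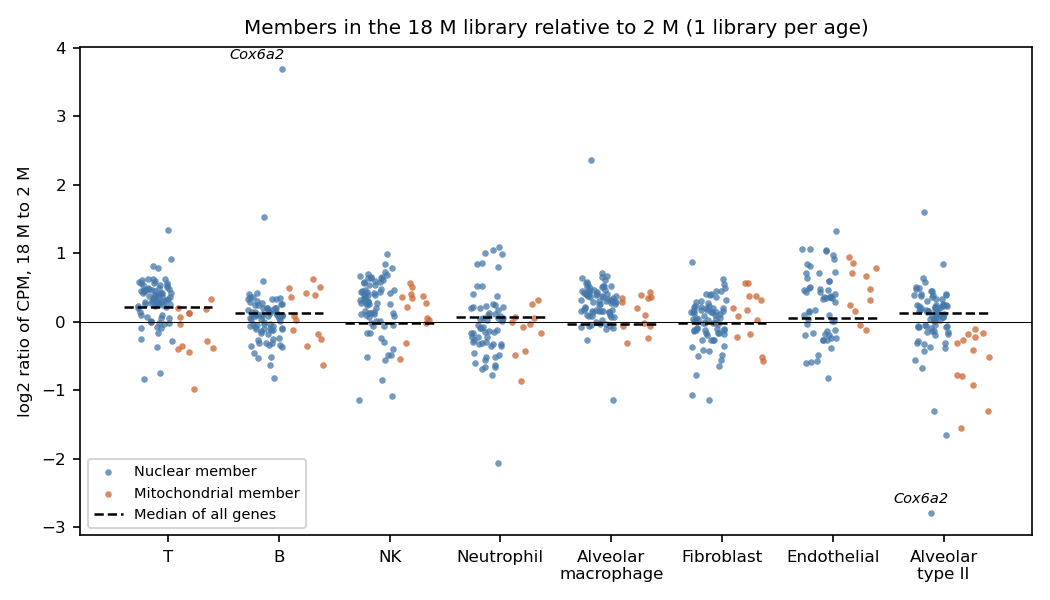
Log2 ratio of CPM in 18 M to 2 M for members with at least 30 UMIs over both libraries, nuclear (blue) and mitochondrial (orange), with the median of all genes dashed, 1 library per age. All 13 mitochondrial points lie below 0 in alveolar type II cells, and Cox6a2 is the lowest point there (0.14 times) and the highest in B cells (12.9-fold, from 2 and 28 UMIs).

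Genes of neighbouring pathways were counted for the same contrasts, beside which the shares of all genes higher and lower were 32.7% and 27.2% in alveolar macrophages, 25.8% and 32.4% in neutrophils, 34.2% and 23% in alveolar type II cells and 20.6% and 17.3% in endothelial cells. In alveolar macrophages 10 of 13 citric acid cycle genes and 11 of 15 glycolysis genes were higher, and 0 and 2 were lower. Of the 6 genes of complex II, which feeds electrons from succinate, 5 were higher in alveolar macrophages and 1 lower (Sdhaf1, an assembly factor). In neutrophils 9 glycolysis genes were higher and 3 lower, against 3 higher and 8 lower among citric acid cycle genes, at the TMM scaling, on which the neutrophil calls of the members depended. Of the 29 other assembly factors 17 were lower in neutrophils and 4 higher, among them the copper chaperone Cox17 (3.60). Alveolar type II cells had 7 citric acid cycle genes higher and none lower, and 4 of 15 glycolysis genes higher and 4 lower. Endothelial cells had 7 of 13 citric acid cycle genes and 9 of 15 glycolysis genes lower, and 1 of each higher. Cyc1 and Cycs, which encode cytochromes c1 and c, were both higher in alveolar macrophages and lower in endothelial cells and neutrophils.

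Genes that copy, transcribe and stabilise mitochondrial DNA and RNA were counted as well. Of 11 tested, 7 were higher in B cells (39.1% of all genes) with none lower and 7 in T cells (36.6%) with 1 lower, whereas 6 were lower in neutrophils (32.4%) and 1 higher (25.8%). In alveolar type II cells, where all mitochondrial members were higher, 4 of 11 were higher (34.2% of all genes) and Tfam, which packs mitochondrial DNA, was not called (-0.24). Of 8 regulators, the coactivator Ppargc1a was higher in alveolar type II cells (4.63) and lower in alveolar macrophages (-4.06), although the nuclear members were higher in both. The hypoxia factor Epas1 was higher in endothelial cells (6.02) and alveolar type II cells (3.60). Ucp2, the one uncoupling gene that passed the filter, was higher in alveolar macrophages (2.62) and neutrophils (2.42) and lower in fibroblasts (-3.47).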

How the data were processed

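By the submitters' notes, 10x 3′-end reads of 4 libraries were aligned to mm10 with Cell Ranger 3.0.2, and Seurat 2.0 is also named. Whether that version of Cell Ranger made the matrices could not be settled. The authors deposited filtered matrices of raw UMI counts per gene and barcode, which were used as deposited. The members and gene lists were chosen with earlier results of these data known. Cells were kept and typed as described in the report, using 19 marker lists without any member, and doublets were not removed. UMIs were summed by type and library. CPM are UMIs per 1000000 UMIs of the type in the library, and 3′-end counts need no length term. Sums of 8 types were tested with edgeR 4.0.16 (R 4.3.3; TMM, quasi-likelihood, library as block, at least 10 UMIs in at least 4 sums, adjusted p under 0.05), checked on simulated counts. DESeq2 1.42.0 served as an alternative. Ratios between libraries have exact conditional binomial intervals, shares Clopper-Pearson intervals and levels exact Poisson intervals (95%), and a count of 0 was read against 3 counts. PCR and pooled animals are not covered by these intervals. Named in the text are the mitochondrial members, the paired isoforms, up to 3 nuclear members with the largest called difference in each direction per cell type and, per ratio, up to 3 highest and 3 lowest whose interval excluded 1; Ndufc2, Uqcr11, Uqcrq and the genes named from the pathway lists were chosen after their values were seen. Gene positions are from GENCODE vM21 on GRCm38. Alternatives for normalization, filters, cell limits, gates, 18 M cells and left-out libraries are given in the closing section.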

Additional observations from a re-analysis of the deposited data

Results flagged for a closer look

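The ratio of 18 M to 2 M had opposite directions in different cell types for 2 sets of values. The summed mitochondrial members stood at 0.82 times 2 M in alveolar type II cells and at 1.33 times in B cells. Cox6a2 stood at 0.144 times 2 M in alveolar type II cells and at 12.9 times in B cells, where 2 M had only 2 UMIs. With 1 library per age these differences between cell types were not tested.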

How the results depend on the processing

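Of 493 recomputed values, 425 stayed within the limits set for a change and 68 moved. Differences and ratios of single members were recomputed for a few chosen genes and cell types only, and none of these changed sign. Members outside that choice did change direction. In neutrophils the nuclear calls went from 20 higher and 45 lower to 5 higher and 72 lower with no normalization beyond CPM. The median log2 difference of the nuclear members did change sign in T cells (0.02 to -0.18 with DESeq2's size factors) and, with no normalization beyond CPM, in B cells (-0.03 to 0.21), NK cells (-0.04 to 0.42) and fibroblasts (-0.10 to 0.02), as did that of the mitochondrial members in endothelial cells (-0.30 to 0.17). All 13 mitochondrial members stayed higher in alveolar type II cells and lower in neutrophils in every alternative. With DESeq2's size factors 15 nuclear members were higher and 33 lower in T cells and 6 and 39 in B cells, and 4 mitochondrial members were higher in T cells and 1 in B cells. DESeq2's own test gave 17 and 38 nuclear members in T cells and 7 and 42 in B cells. With no normalization beyond CPM (chosen after seeing the data) the nuclear counts were 38 higher and 5 lower in B cells, 49 and 5 in NK cells and 5 and 72 in neutrophils, with 15 lower in fibroblasts and 10 in endothelial cells, and the mitochondrial counts were 12 higher in B cells, 3 lower in NK cells and 0 lower in endothelial cells. In B cells 26 were lower without mitochondrial and haemoglobin genes, 11 higher with the Y-linked cells of 18 M, and 11 higher and 29 lower, with 4 mitochondrial members higher, over 10 types (chosen after seeing the data).
Without single libraries the nuclear members higher were 19 to 29 (T cells), 7 to 17 (B cells), 8 to 22 (NK cells), 16 to 21 (neutrophils), 51 to 58 (alveolar macrophages), 9 to 19 (fibroblasts) and 48 to 52 (alveolar type II cells), and those lower 14 to 21 (T cells), 16 to 23 (B cells), 11 to 20 (NK cells), 39 to 43 (neutrophils), 14 to 20 (fibroblasts) and 31 to 42 (endothelial cells). Mitochondrial members higher were 4 to 10 in T cells and 2 to 8 in B cells, and those lower 6 to 11 in NK cells, 2 to 8 in endothelial cells and 1 to 5 in fibroblasts. The log2 difference of Cox6a2 in alveolar type II cells was 7.87 to 9.55. That of Cox6b2 was 3.16 to 3.31 in alveolar macrophages, 3.06 to 3.96 in fibroblasts and 1.38 to 1.93 in alveolar type II cells. That of Cox7a1 was 2.66 to 3.14 in alveolar type II cells.
For 18 M against 2 M, averaging over cells gave 5 nuclear members higher in T cells, 9 in NK cells, 8 lower in fibroblasts and 11 mitochondrial members lower in alveolar type II cells. Totals without mitochondrial, haemoglobin and ribosomal protein genes gave 4 higher in T cells and 12 in alveolar macrophages. Y-linked cells gave 24 higher in NK cells, 1 in alveolar macrophages, 2 lower in alveolar type II cells and 10 in fibroblasts. A minimum of 100 UMIs gave 1 higher in B cells, 9 in NK cells, 1 lower in alveolar type II cells and 2 in fibroblasts, cells under 8% mitochondrial UMIs 1 higher in B cells, and 1 more marker 23 higher in NK cells. The cause of these changes was not tested. No paired analysis was possible because each age was 1 library, and the library was already the block between cell types.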
